A study of Mus musculus with 26 samples.

Results

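The transcripts described here are those of 10 circadian clock genes, *Per1*, *Per2*, *Per3*, *Cry1*, *Cry2*, *Nr1d1*, *Nr1d2*, *Dbp*, *Arntl* and *Clock*, chosen by their gene symbols. They were followed by Decay-Seq, in which RNA carrying 5-ethynyluridine (5-EU, a uridine analogue to which biotin can be coupled) is pulled down and sequenced during a chase with ordinary uridine. All 10 were among the 9751 transcripts listed for oligodendrocytes (OLs), and 8 were among the 8530 listed for oligodendrocyte progenitor cells (OPCs). *Arntl* and *Dbp* were not listed for OPCs, so the cell types could not be compared for them. The other 8 were listed in both tables with 8177 transcripts in all, and had a half-life in all 5 replicates with 8112 transcripts in all.

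The OPCs were murine cells derived from epiblast stem cells of strain 129S/SvEv and kept in medium with bFGF and PDGFA. The OLs were differentiated from such OPCs with T3, noggin, IGF-1, cAMP and NT3. Both were labelled with 5-EU for 24 h and collected after 0, 1, 2, 4 and 6 h of chase, from 3 OPC replicates and 2 OL replicates. The labels give no treatment meant to set the cultures to a common clock phase, and no time of day. The study labelled both cell types at a set time after seeding, and cAMP was in the OL medium alone. Whether either set a clock phase was not tested.

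The mammalian clock is a feedback loop of transcription and translation. CLOCK and ARNTL (also called BMAL1) bind E-box elements as a pair and activate the *Per* and *Cry* genes, whose proteins return to the nucleus and inhibit that pair. A second loop runs through the nuclear receptors NR1D1 and NR1D2 (REV-ERB alpha and beta), which repress *Arntl*, and DBP carries the rhythm to output genes. The proteins and many of the mRNAs of the loop are known to be short-lived, which lets their levels swing within a day.

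The sequences shown first are those of the genes with a called difference below, since stretches of the 3′ UTR can bear on mRNA stability and the E-box is the element that CLOCK and ARNTL bind. They were taken from the GRCm38 transcripts of GENCODE M21 and from RefSeq promoter windows (GRCm38.p6, 250 bases before to 50 bases after a start), with the searched motif in capitals. In the 3′ UTR, the AU-rich words TATTTAT and TTATTTATT and the Pumilio-type word TGTANATA were searched on the transcript strand, and a TTATTTATT always holds a TATTTAT. Each 3′ UTR window lies in exonic sequence after the stop codon.
Per1 AU-rich, chr11:69109686-69109715, plus strand: ggggctgcacTTATTTATTtgggagagaca
Nr1d1 AU-rich, chr11:98768102-98768131, minus strand: aaccagaatctTATTTATattgttataaaa
Nr1d1 Pumilio-type, chr11:98768047-98768076, minus strand: ctgagccttctTGTAAATAactcttccccc
Cry1 Pumilio-type, chr10:85132111-85132140, minus strand: aagtggtaattTGTATATAagatcttggta
Cry1 Pumilio-type, chr10:85132078-85132107, minus strand: gatttgcttaaTGTAAATAtaagccacagt
Per2 Pumilio-type, chr1:91416890-91416919, minus strand: cccactctataTGTATATActcctagctac
Per2 Pumilio-type, chr1:91416150-91416179, minus strand: cttctttttaaTGTAAATAagctctcagag
Cry1 promoter E-box, chr10:85185097-85185126, minus strand: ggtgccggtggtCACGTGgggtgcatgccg
Per1 promoter E-box, chr11:69098771-69098800, plus strand: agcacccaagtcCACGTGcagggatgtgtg

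TATTTAT was present in the 3′ UTR of 4 of the 10 clock transcripts (*Per1*, *Nr1d1*, *Nr1d2* and *Clock*), beside 29.7% of the 10089 listed transcripts with a usable coding sequence. *Per1* alone among the 10 held TTATTTATT, beside 7.77% of all. TGTANATA was present in 6 of 10 (*Cry1*, *Nr1d1*, *Per2*, *Clock*, *Nr1d2* and *Per3*), beside 26.5% of all. The palindrome CACGTG was found in the promoter windows of 2 of the 9 clock genes that had one, *Cry1* (at position -60 from the start) and *Per1* (-166), beside 969 of the 8089 listed genes with a window. *Per2* had no entry in the promoter table. The 3′ UTRs ran from 288 bases in *Nr1d1* to 4522 in *Clock*, around a median of 1096 over all transcripts, and their A+U share from 45.8% in *Dbp* to 67.0% in *Cry1*, around a median of 55.7%. A long 3′ UTR has more room for any of these words, so the counts describe these windows and say nothing on binding.

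The study asked how codons read by altered tRNAs relate to mRNA stability, and the clock transcripts lay on both sides of that scale. UUU made up 17.9% of the phenylalanine codons (UUU and UUC) of *Per2* and 19.4% in *Per1*, against 72.0% in *Cry1*, 67.6% in *Clock* and 64.0% in *Nr1d2*; the median of all transcripts was 44.4%. AAA made up 13.3% of the lysine codons of *Dbp*, 27.5% in *Per1*, 35.5% in *Cry1* and 55.9% in *Clock*, around a median of 37.5%.

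The libraries differed between the cell types in ways that touch every transcript. The median transcript had 64.0 to 95.5% of its own 0 h value after 1 h, and after 6 h it had 11.0 to 17.7% in OPCs and 31.5 to 36.6% in OLs. At 6 h, 15.7 to 21.6% of OPC transcripts and 0.790 to 4.08% of OL transcripts were listed at 0. The 6 OPC markers were all listed in both cell types, with summed 0 h FPKM of 1530 to 1691 in OPCs and 986 to 1171 in OLs. *Pdgfra*, which defines OPCs, was 1.70 ± 0.37 (SE) log2 units higher in OLs (adjusted p = 0.012), as was *Sox10* (3.07 ± 0.58, adjusted p = 0.00731), which the whole lineage uses. *Olig1* (-0.88 ± 0.22, adjusted p = 0.019) and *Olig2* (-0.67 ± 0.21, adjusted p = 0.0436) were lower in OLs, and *Cspg4* (-0.53 ± 0.25, adjusted p = 0.135) and *Ptprz1* (-0.46 ± 0.38, adjusted p = 0.384) did not pass. Of the 6 OL markers, 2 were listed in OPCs (*Mbp* and *Cnp*, summing to 37.6 to 55.1 FPKM) and 6 in OLs (2744 to 5997). Of the 4 astrocyte markers, 1 was listed in OPCs (179 to 224) and 3 in OLs (104 to 165), and of the 4 neuron markers 1 was listed in OPCs (13.2 to 17.4) and 2 in OLs (25.9 to 27.7). *Gfap* was not listed in OPCs, *Aqp4*, *Rbfox3* and *Snap25* were listed in neither, and none of the 4 microglia and 4 pluripotency markers was listed. The part of these differences in the clock values was not tested.

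At 0 h, which follows 24 h of labelling, *Nr1d1* was higher in OLs and *Per2* was lower. FPKM (fragments per kilobase of transcript, relative to the mapped reads of a library) is scaled to length, so levels can be set side by side. *Nr1d1* was at 13.7, 7.90 and 12.7 FPKM in OPC replicates 1, 2 and 3 and at 22.5 and 30.3 in OL replicates 1 and 2. Both OL values lay above all OPC values. The difference was 1.16 ± 0.29 log2 units (SE) on the log2(FPKM + 1) scale, a fold of 2.23 (limma, adjusted p = 0.0194). *Per2*, a repressor of the core pair, was at 6.00, 4.64 and 5.32 FPKM in OPCs and at 2.31 and 2.08 in OLs. The groups did not overlap, and the OL level was lower by a log2 difference of -0.98 ± 0.21 (adjusted p = 0.0123). *Per2* was the only 1 of the 8 with a negative difference.

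The remaining 6 did not pass at 0 h. *Cry1* was at 11.6, 14.0 and 14.5 FPKM in OPCs and 15.7 and 18.9 in OLs (difference 0.35 ± 0.22, adjusted p = 0.261). *Per3* was at 6.82, 5.50 and 8.03 in OPCs and 8.84 and 9.86 in OLs (0.42 ± 0.23, adjusted p = 0.198). Their replicates did not overlap, though neither difference passed the test. *Clock* (0.65 ± 0.34), *Cry2* (0.62 ± 0.33), *Per1* (0.54 ± 0.30) and *Nr1d2* (0.38 ± 0.25) overlapped between the cell types, with adjusted p between 0.182 and 0.278. In OPCs the means ran from *Cry1* (13.4 ± 1.6 FPKM, SD, n = 3), *Nr1d2* (11.7 ± 1.8) and *Nr1d1* (11.4 ± 3.1) through *Clock* (9.64 ± 4.2), *Per1* (8.10 ± 1.2), *Per3* (6.78 ± 1.3) and *Cry2* (6.76 ± 1.9) to *Per2* (5.32 ± 0.68). *Per1* and *Per3* were apart by slightly more than the larger of their SDs, and no other neighbours were. *Per2* had the lowest mean of the listed clock transcripts in both cell types, though in OPCs *Clock* was lower in replicate 1 (5.87 against 6.00 FPKM) and *Cry2* in replicate 2 (4.62 against 4.64). In OLs alone, *Dbp* was at 19.5 and 31.9 FPKM and *Arntl*, the partner of *Clock*, at 6.05 and 6.13. The order of the OL means ran from *Nr1d1* (26.4 ± 5.5 FPKM, n = 2) and *Dbp* (25.7 ± 8.8) through *Cry1* (17.3 ± 2.3), *Nr1d2* (15.6 ± 3.9), *Clock* (15.1 ± 3.4), *Per1* (12.8 ± 6.1), *Cry2* (11.2 ± 4.9) and *Per3* (9.35 ± 0.72) to *Arntl* (6.09 ± 0.060) and *Per2* (2.20 ± 0.16). The last 3 were separated from each other by more than the larger of their SDs, while the neighbours above them were not.

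Of the 8 clock transcripts tested at 0 h, 1 was called higher and 1 lower, beside 13.8% of all 8177 called higher and 15.8% called lower. Replicates did not overlap for 3 higher and 1 lower, beside 28.0% and 31.4% of all, so these counts stand near the background. The median difference was 0.48 for the clock transcripts and -0.01 for all. In these bulk cultures, fewer cells with an mRNA and less of it per cell cannot be told apart. Without either OL replicate the remaining lone OL sample was assumed to vary like the OPCs, and neither call held (*Nr1d1* adjusted p = 0.068 without replicate 1 and 0.134 without replicate 2, *Per2* 0.069 and 0.0776); *Per2* also missed without OPC replicate 3 (0.0592), and *Clock* passed without OPC replicate 2 (0.95, adjusted p = 0.0438).

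The course of the chase differed among the clock transcripts, as the plot of FPKM over the chase shows. In OPCs 7 of 8 fell (adjusted p under the threshold of 0.05 for a line through log2(FPKM + 1) against hours, fitted by limma with a level for each replicate), beside 81.7% of the 8530 transcripts that fell and 4.31% that rose. *Nr1d1* was the exception, at a slope of -0.11 ± 0.08 (SE) log2 units per hour (adjusted p = 0.199). In OLs all 10 fell, beside 68.4% of 9751 that fell and 1.50% that rose. The median slope of the clock transcripts was -0.42 per hour in OPCs and -0.25 in OLs, and of all transcripts -0.38 and -0.20. Setting each library to the median of its replicate's 0 h library takes -0.44 (OPCs) and -0.23 (OLs) off each slope. *Cry1* and *Per1* then still fell in OPCs and *Clock* and *Nr1d2* in OLs, *Nr1d1* rose in OPCs (0.33, adjusted p = 0.00171), and none of the others passed. Without the 6 h libraries, *Per1*, *Per3*, *Cry1*, *Nr1d1* and *Dbp* did not pass in OLs (adjusted p from 0.0607 to 0.285), and without OL replicate 2 neither did *Per2* (0.105), *Cry2* (0.157) and *Nr1d1* (0.492).

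**Figure D1:**
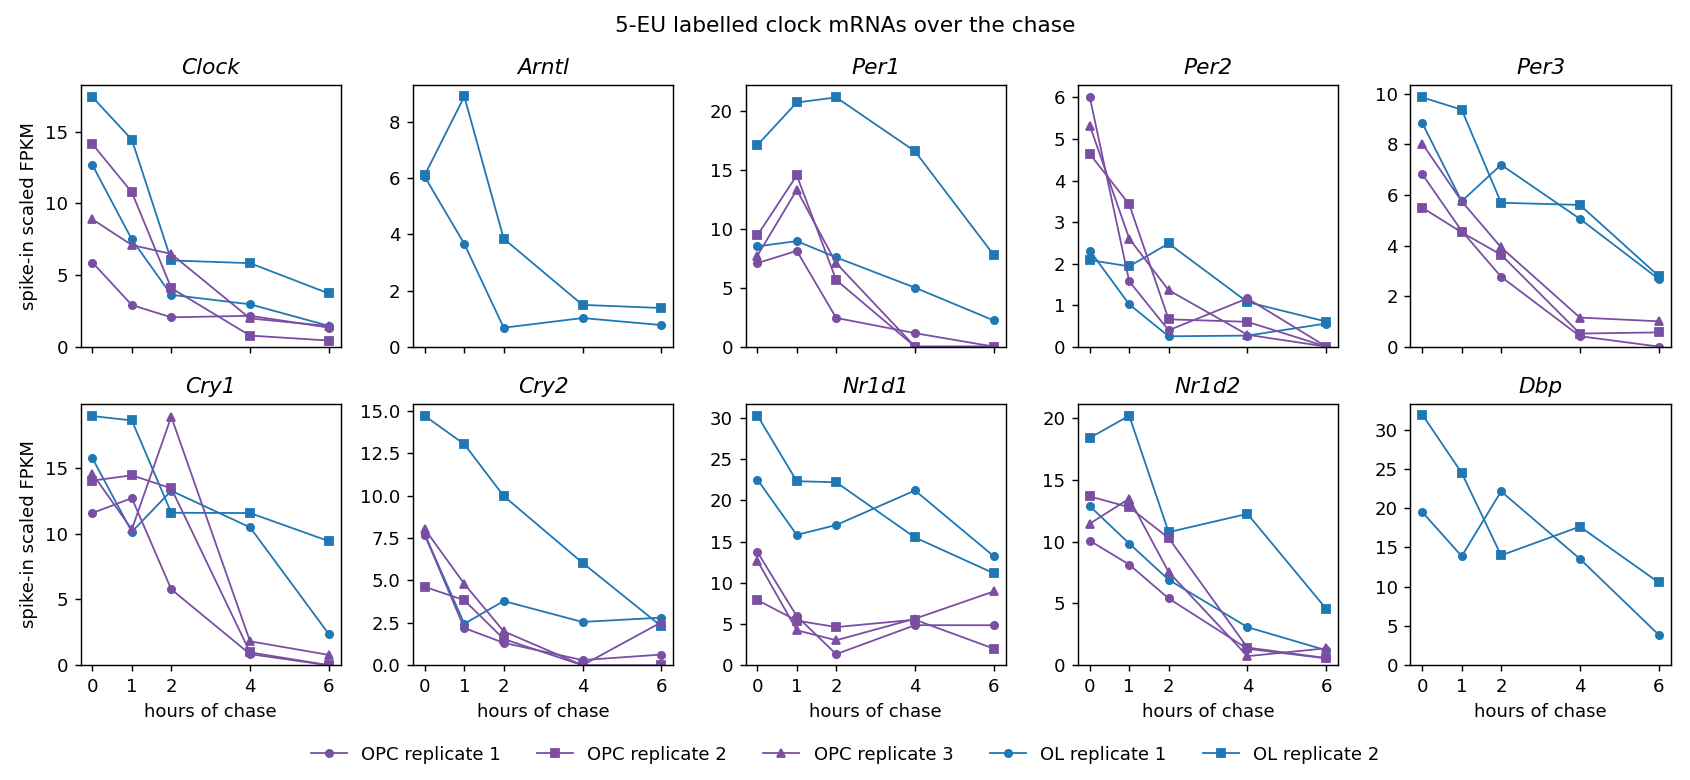
FPKM (y axis, each panel from 0 on its own scale, the later times scaled by the authors to labelled spike-ins and 0 h read as unscaled) against hours of chase (x axis) for the 10 clock transcripts, with 1 line per replicate (OPC purple, OL blue). *Per1* and *Cry1* are at 71.0 to 172.5% of their 0 h level after 1 h and at 0 to 1.82 FPKM at 4 and 6 h in OPCs, and higher in OLs at these times, and *Nr1d1* in OPC replicates 1 and 3 is lower at 2 h than at 6 h.

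*Clock* and *Arntl* encode the activating pair. *Clock* went from 12.7 to 1.45 FPKM and from 17.4 to 3.71 between 0 and 6 h in the OL replicates. In OPCs it went from 5.87 to 1.33, from 14.1 to 0.423 and from 8.89 to 1.43. Its slope was -0.40 ± 0.06 in OPCs and -0.35 ± 0.05 in OLs, and the slope difference of 0.05 ± 0.11 did not pass (adjusted p = 0.776). *Arntl* went from 6.05 FPKM at 0 h to 3.66, 0.673, 1.02 and 0.769 at 1, 2, 4 and 6 h in OL replicate 1. In OL replicate 2 it went from 6.13 to 8.92, 3.85, 1.49 and 1.38. The replicates thus disagreed at 1 h, at 60.6% and 145% of 0 h, and were both low from 4 h on (slope -0.32 ± 0.06, adjusted p = 4.07e-04). Beside *Nr1d2* (-0.37 ± 0.05), *Clock* and *Arntl* had the steepest slopes of the 10 in OLs.

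The *Per* genes encode the PERIOD repressors. *Per1* was at 114.7, 154.0 and 172.5% of its 0 h value after 1 h in OPC replicates 1, 2 and 3, and at 105.2 and 121.1% in OL replicates 1 and 2. It was the only clock transcript above its own 0 h value at 1 h in all 5 replicates, which was the case for 8 of 8177 transcripts (0.0978%); this criterion was chosen after the values were seen. The value at 1 h lay at percentiles 92.5 to 99.0 of all transcripts in OPCs and at 96.8 and 86.3 in OLs. From there *Per1* went to 2.44, 5.66 and 7.10 FPKM at 2 h, 1.14, 0 and 0 at 4 h, and 0 in each OPC replicate at 6 h. In OLs it was still at 5.01 and 16.6 FPKM at 4 h and 2.22 and 7.79 at 6 h, 26.1 and 45.5% of its 0 h level. Every OL value at 4 and 6 h thus lay above every OPC value.

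*Per2* and *Per3* were below their 0 h values at 1 h in each OPC replicate, where *Per1* was above its own. *Per2* had 26.2, 73.8 and 48.9% of its 0 h value after 1 h and 6.5, 14.2 and 25.5% after 2 h, which placed it at percentiles 1.7 to 6.9 of all transcripts at 2 h. At 6 h it was listed at 0 in all 3 OPC replicates. The OL replicates of *Per2* did not follow 1 course, with 10.7% of 0 h left after 2 h in replicate 1 and 119.3% in replicate 2, at levels of 0.248 and 2.48 FPKM. *Per3* went steadily from 6.82, 5.50 and 8.03 FPKM at 0 h to 2.76, 3.63 and 3.93 at 2 h and 0.412, 0.516 and 1.15 at 4 h in OPCs. In OLs *Per3* was at 5.06 and 5.61 FPKM at 4 h and 2.68 and 2.79 at 6 h, above all OPC values at these times.

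The *Cry* genes encode the cryptochrome repressors. *Cry1* went from 11.6 FPKM at 0 h to 12.7, 5.77, 0.841 and 0 at 1, 2, 4 and 6 h in OPC replicate 1. In OPC replicate 2 it went from 14.0 to 14.4, 13.4, 0.979 and 0, and in OPC replicate 3 from 14.5 to 10.3, 18.9, 1.82 and 0.786. The OPC level thus held to 2 h in 2 of the replicates and was at 7.0 to 12.5% of 0 h by 4 h in all 3. *Cry1* had 66.7 and 61.1% of 0 h left at 4 h in OL replicates 1 and 2, and 15.1 and 49.8% at 6 h. *Cry2* dropped early in OPCs, to 17.2, 33.5 and 24.9% at 2 h, and at 6 h it was listed at 0.629, 0 and 2.53 FPKM. In OLs *Cry2* had 49.2 and 67.9% of 0 h left at 2 h, above each OPC value.

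The REV-ERB genes took different courses. *Nr1d1* dropped to 43.4, 68.6 and 33.5% of 0 h within 1 h in OPCs, and then stood at 4.86, 5.53 and 5.65 FPKM at 4 h and 4.86, 2.02 and 8.96 at 6 h. OPC replicates 1 and 3 were thus higher at 6 h than at 2 h (1.35 and 3.03 FPKM). In OLs it declined from 22.5 to 13.2 and from 30.3 to 11.2 FPKM over 6 h, with a slope of -0.14 ± 0.05 (adjusted p = 0.0127). *Nr1d1* lies on chromosome 11 (98767932 to 98775333, minus strand), and 263 of the 2721 bases of its listed transcript, 9.67%, also belong to exons of *Thra* (thyroid hormone receptor alpha) on the opposite strand. Whether reads were counted by strand is not given in the sources used here, so reads from the shared bases cannot be assigned to either gene. The listed *Thra* transcript does not reach these bases. Its level hardly declined, from 40.7 to 59.4 FPKM at 0 h to 76.8, 115.5 and 92.5% of that at 6 h in OPCs. In OLs it was at 94.2 and 74.3 FPKM at 0 h, above each OPC value, and at 131.6 and 83.2% of that at 6 h. The part of *Thra* in the *Nr1d1* values, at 0 h or later, was not tested.

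*Nr1d2* fell in both cell types, by slopes of -0.55 ± 0.06 in OPCs and -0.37 ± 0.05 in OLs. It was at 13.2, 10.5 and 6.4% of 0 h after 4 h in OPCs and at 24.0 and 66.6% in OLs. *Dbp*, the output factor, fell in OLs from 19.5 to 3.89 and from 31.9 to 10.5 FPKM (slope -0.26 ± 0.06, adjusted p = 9.98e-04). In *Dbp*, 539 of 1837 bases (29.3%) also belong to exons of *Sphk2* on the opposite strand. The listed *Sphk2* transcript does not reach these bases. In OLs it was at 13.0 and 19.6 FPKM at 0 h and 1.75 and 3.49 at 6 h. The part of *Sphk2* in the *Dbp* values was not tested. At 6 h, 4, 4 and 2 of the 8 clock transcripts were listed at 0 in OPC replicates 1, 2 and 3, beside 15.7, 21.6 and 16.4% of all transcripts. In each OL replicate it was 0 of 10, beside 4.08 and 0.790% of all in replicates 1 and 2.

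**Figure D2:**
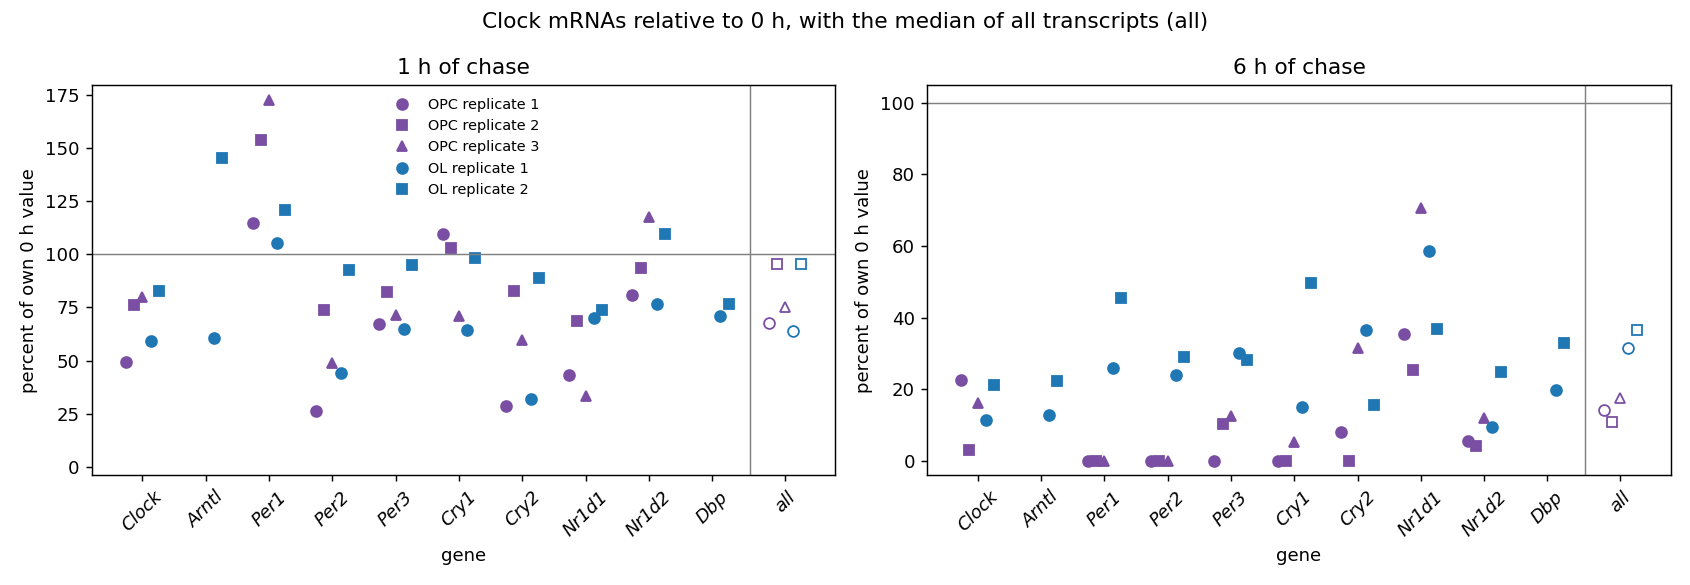
Percent of each transcript's own 0 h value (y axis) at 1 h (left) and 6 h (right) of chase for the 10 clock transcripts, with 1 filled symbol per replicate (OPC purple, OL blue) and open symbols for the median of all transcripts in the same library. *Per1* is above 100% at 1 h in all 5 replicates and at 0 in the OPC replicates at 6 h.

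The slopes over the chase, 1 per replicate, were then compared between the cell types. *Cry1*, *Per1* and *Per2* were less steep in OLs. *Cry1* had slopes of -0.69, -0.75 and -0.58 log2 units per hour in OPCs and -0.33 and -0.16 in OLs, a difference of 0.43 ± 0.09 (SE, adjusted p = 0.00741). *Per1* had -0.54, -0.72 and -0.69 in OPCs and -0.27 and -0.18 in OLs, a difference of 0.43 ± 0.08 (adjusted p = 0.00741). *Per2* had -0.35, -0.41 and -0.44 in OPCs and -0.16 and -0.17 in OLs, a difference of 0.23 ± 0.08 (adjusted p = 0.0429). The groups did not overlap for these 3 transcripts. *Per2* starts near 2 FPKM in OLs, where the added 1 FPKM flattens a slope more than at the OPC level. With 0.1 FPKM added its difference was 0.58 (limma, adjusted p = 0.0245). This cannot settle the point, because *Per2* was listed at 0 at 6 h in all 3 OPC replicates. There the smaller added value steepens the slope, which went from -0.40 to -0.87 per hour in OPCs. *Per3* (0.21 ± 0.08, adjusted p = 0.067) and *Nr1d2* (0.18 ± 0.08, adjusted p = 0.126) did not overlap either but missed the threshold. *Cry2* (0.13 ± 0.09), *Clock* (0.05 ± 0.11) and *Nr1d1* (-0.03 ± 0.09) overlapped and did not pass, with adjusted p from 0.336 to 0.82.

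Of the 8 clock transcripts, 3 were called less steep in OLs and 0 steeper, beside 23.7% and 0.0856% of all 8177. Replicates were apart in that direction for 5 of 8, beside 50.9% of all. The 3 of 8 therefore stand little above a shift shared by most transcripts, of which the median difference was 0.14 (0.20 for the clock transcripts). Setting each library to the median of its replicate's 0 h library takes 0.20 off each difference, and no call was kept (*Cry1* 0.23, adjusted p = 0.065, *Per1* 0.22, adjusted p = 0.0692, *Per2* 0.03, adjusted p = 0.815). Without OL replicate 1 or without OL replicate 2 none of the 3 passed, at adjusted p of 0.0546 and 0.0983 for *Cry1*, 0.0678 and 0.0861 for *Per1* and 0.229 and 0.187 for *Per2*; *Per2* also missed without OPC replicate 2 (0.0542) or OPC replicate 3 (0.0911) and without the 6 h libraries (0.177), and *Cry1* missed with a pseudocount of 0.1 (0.80, adjusted p = 0.0605).

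The deposited half-lives were fitted by the authors to each replicate as a single exponential decay by least absolute deviations, up to a ceiling of 6 h. *Cry1* was listed at 1.96 h in each OPC replicate and at 6 h and 5.62 h in OL replicates 1 and 2. The log2 difference was 1.57 ± 0.03 (SE), a fold of 2.97 (limma, adjusted p = 0.00274). *Per1* was listed at 1.52, 1.96 and 1.96 h in OPCs and 5.22 and 6 h in OLs, a difference of 1.64 ± 0.16 and a fold of 3.11 (adjusted p = 0.0409). Both were longer in OLs with no overlap between the groups. Each had an OL half-life at the 6 h ceiling, which caps the printed folds.

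The 3 OPC half-lives of *Cry1* were the same although its courses were not, with 49.9, 95.8 and 129.9% of 0 h left at 2 h, so the error of its difference is smaller than the spread of the data. The sum of absolute deviations has a minimum at 1.96 h whenever the 1 and 2 h values lie above the curve and the 4 and 6 h values below it, whatever their size. This value was listed for 185, 2174 and 633 of the 8491 transcripts in OPC replicates 1, 2 and 3 (2.18, 25.6 and 7.45%) and for 46 and 134 of 9698 in OL replicates 1 and 2 (0.474 and 1.38%). Among the clock transcripts it stood for 8 of 24 half-lives in OPCs and 1 of 20 in OLs: *Cry1* in 3 OPC replicates, *Per1* and *Nr1d2* in 2, *Per3* in 1, and *Nr1d2* in 1 OL replicate. With the same curve fitted by least squares, an alternative added after the data were seen, *Cry1* was at 2.01, 2.62 and 3.07 h in OPCs and 3.87 and 5.32 h in OLs, and *Per1* at 1.96, 2.46 and 3.12 h and 4.86 and 6 h. Both kept their direction and neither passed (*Cry1* 0.84, adjusted p = 0.242, *Per1* 1.13, adjusted p = 0.168). With the authors' criterion refitted without the 6 h libraries, the direction was kept and both calls were lost as well (*Cry1* 1.04, adjusted p = 0.705, *Per1* 1.03, adjusted p = 0.706).

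**Figure D3:**
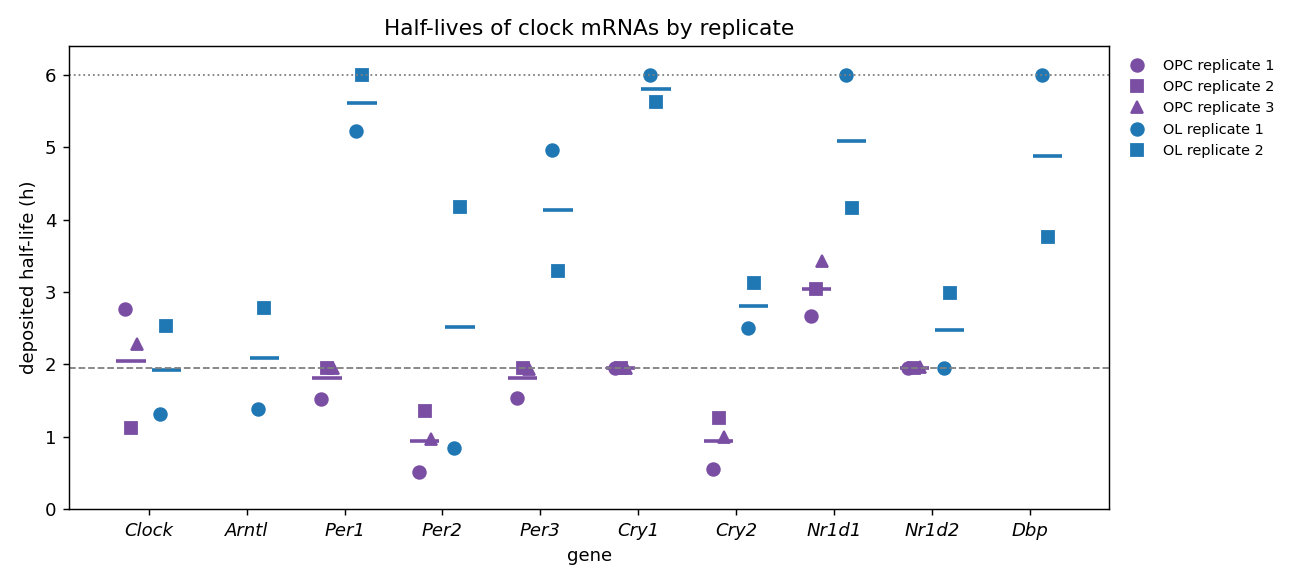
Deposited half-life in hours (y axis) of the 10 clock transcripts, with 1 symbol per replicate (OPC purple, OL blue) and a bar at the mean of each cell type. The dotted line is the ceiling of 6 h, and the dashed line is the value of 1.96 h at which the OPC half-lives of *Cry1* lie on top of each other.

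The other 6 half-lives did not pass. *Cry2* was among the shortest clock half-lives in OPCs, at 0.554, 1.27 and 0.998 h, and was at 2.51 and 3.12 h in OLs (difference 1.66 ± 0.44, adjusted p = 0.152). *Per2* was at 0.517, 1.35 and 0.968 h in OPCs and at 0.844 and 4.18 h in OLs (1.10 ± 0.94, adjusted p = 0.605). Over the OPC replicates, the mean percentile among all half-lives was 6.18 for *Cry2* and 6.22 for *Per2*, and the OL replicates of *Per2* were farther apart than its OPC replicates. *Per3* was at 1.53, 1.96 and 1.94 h in OPCs and 4.96 and 3.29 h in OLs (1.17 ± 0.25, adjusted p = 0.109). *Nr1d1* was at 2.67, 3.04 and 3.43 h in OPCs and 6 and 4.16 h in OLs (0.72 ± 0.22, adjusted p = 0.188). *Cry2*, *Per3* and *Nr1d1* were thus apart between the groups, while *Clock* (-0.07 ± 0.58) and *Nr1d2* (0.30 ± 0.21) overlapped. *Nr1d2* was at 1.96 h in each OPC replicate to 3 digits and at 1.96 and 2.98 h in OLs, and *Clock* at 2.76, 1.12 and 2.28 h and at 1.31 and 2.53 h. In OLs alone, *Arntl* was at 1.38 and 2.78 h and *Dbp* at 6 and 3.75 h.

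Some half-lives rest on a second minimum of the fit. A refit of the same criterion gave the deposited value to within 0.01 h for all but 3 of the 44 clock half-lives. These were *Nr1d1* in OPC replicates 1 and 3, refitted at 0.83 and 0.968 h, and *Clock* in OPC replicate 1, refitted at 1.31 h. With the refitted values the *Nr1d1* difference went from 0.72 to 1.89 (adjusted p = 0.263), without the 6 h libraries to 1.96 (adjusted p = 0.466) and by least squares to 1.20 (adjusted p = 0.498), so its size depended on the fit while no version passed. In both of these *Nr1d1* replicates the level was lower at 2 h than at 4 and 6 h, a course that a single exponential cannot follow.

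Within each cell type, the clock transcripts lay mostly below the middle of the half-life range in OPCs. Of the 8, 6, 7 and 7 were below the 50th percentile in OPC replicates 1, 2 and 3, with medians of 1.75, 1.96 and 1.96 h beside 2.33, 2.05 and 2.79 h for all transcripts. The OPC exception in every replicate was *Nr1d1*, at percentiles 54.9 to 62.8; in replicates 1 and 3 this rests on the deposited 2.67 and 3.43 h, since the refitted 0.83 and 0.968 h lie below the medians. In OLs, 5 and 6 of the 10 were below the 50th percentile, with medians of 3.74 and 3.52 h beside 4.15 and 4.05 h. *Cry1* was at percentiles 31.9 to 41.9 in OPCs and at 80.1 and 61.9 in OLs, and *Per1* at 27.6 to 47.1 and at 57.0 and 82.0. The OPC positions at 1.96 h say little, since transcripts there are tied and ordered by rounding of the fit. In OPC replicate 2, *Cry1* (31.9), *Nr1d2* (44.3) and *Per1* (47.1) all had that half-life.

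Of the 8 clock half-lives tested, 2 were called longer in OLs and 0 shorter, beside 3.39% and 0.148% of all 8112. They were apart in the longer direction for 5 of 8, beside 35.9% of all, and the median difference was 1.13 against 0.37. At the 6 h ceiling stood 24.3 to 31.1% of all half-lives in OPC replicates and 36.1 to 39.7% in OL replicates, and a transcript at the ceiling in both cell types shows no difference. Of the clock half-lives 0 of 24 in OPCs and 4 of 20 in OLs were at the ceiling, and the part of this in the comparison with all transcripts was not tested. Centring each replicate on its median half-life takes 0.90 off each difference, after which *Cry1* was at 0.67 (adjusted p = 0.122) and *Per1* at 0.74 (adjusted p = 0.108). *Per1* did not pass when any 1 replicate was left out. The adjusted p (limma) was 0.0573, 0.107 and 0.0948 without OPC replicate 1, 2 or 3. Its difference was 1.74 without OL replicate 1 and 1.54 without OL replicate 2. The difference of *Nr1d2* was 0.61 without OL replicate 1. Its OPC half-lives all lay at or next to the repeated value, so they give almost no spread to test this against.

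**Figure D4:**
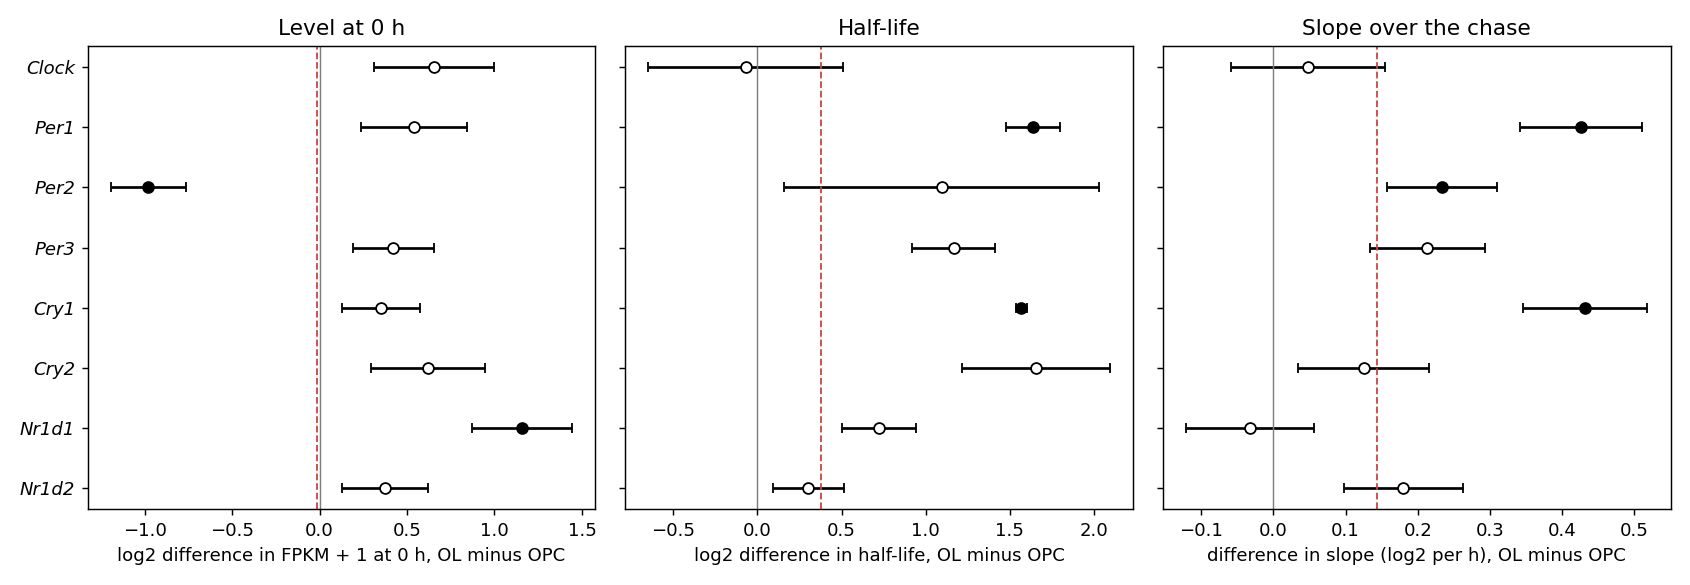
Differences between OLs and OPCs (x axis, OL minus OPC, with bars of 1 SE) in log2(FPKM + 1) at 0 h, log2 half-life and slope over the chase, for the 8 clock transcripts listed in both cell types (y axis). Filled symbols passed an adjusted p of 0.05, and the dashed line is the median over all transcripts tested; *Cry1* and *Per1* are filled for half-life and slope, *Per2* for level and slope and *Nr1d1* for level alone.

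Other genes of the clock loop were taken as a list of 12, of which 7 were listed in each cell type and 6 in both. *Bhlhe40* (DEC1, a repressor of CLOCK and ARNTL) had a longer half-life in OLs, 2.45 ± 0.19 h (SD, n = 2) against 1.11 ± 0.043 h (n = 3), a log2 difference of 1.15 ± 0.07 (SE, adjusted p = 0.0203). It was the 1 of 6 that passed, beside 3.39% of all transcripts, and none was shorter. The call was lost with centred half-lives (0.24, adjusted p = 0.581), by least squares (1.32, adjusted p = 0.141), without the 6 h libraries (1.51, adjusted p = 0.535), and without OL replicate 1 (0.0511) or OPC replicate 1, 2 or 3 (0.0723, 0.0573 and 0.0627). *Rora*, which activates *Arntl* at the elements that NR1D1 and NR1D2 occupy, was higher in OLs at 0 h, at 10.3 ± 4.9 against 2.52 ± 0.75 FPKM (1.64 ± 0.33, adjusted p = 0.00857). It too was the 1 of 6 that passed, in the higher direction, beside 13.8% of all, and did not pass without OL replicate 2 (1.18, adjusted p = 0.068). *Tef*, a relative of *Dbp*, was less steep in OLs (0.31 ± 0.08, adjusted p = 0.0209), the 1 of 6 that passed there, beside 23.7% of all, and it did not pass with each library set to the 0 h median (0.10, adjusted p = 0.343), with a pseudocount of 0.1 (0.08), without the 6 h libraries (0.0621) or without OL replicate 1 (0.156) or 2 (0.125). All 7 fell over the chase in each cell type, beside 81.7% of all in OPCs and 68.4% in OLs. The counts for level and slope thus stand near the background. *Timeless* was listed in OPCs alone and *Nfil3*, which opposes DBP, in OLs alone. The median differences of the list were 0.57 for half-life, 0.55 for the 0 h level and 0.08 for the slope, beside 0.37, -0.01 and 0.14 over all transcripts.

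Regulators of clock proteins, such as kinases and ubiquitin ligases that act on PER, were taken as another list of 11, of which 9 were listed in both cell types. *Fbxw11* (a subunit of the ligase that acts on PER) had half-lives of 5.09 ± 0.34 h in OLs and 2.12 ± 0.28 h in OPCs (1.27 ± 0.14, adjusted p = 0.0444), and *Csnk1e* (casein kinase 1 epsilon, which phosphorylates PER) 3.41 ± 0.29 h and 1.88 ± 0.13 h (0.86 ± 0.09, adjusted p = 0.0459). In OPCs, *Csnk1e* was listed at the repeated value of 1.96 h in replicates 2 and 3 and *Fbxw11* in replicate 2, and the part of this in their small errors was not tested. These 2 of 9 were longer, beside 3.39% of all transcripts, and none was shorter. With centred half-lives *Csnk1e* turned to -0.05 (adjusted p = 0.921) and *Fbxw11* was at 0.37 (adjusted p = 0.361), and neither passed by least squares (0.53, adjusted p = 0.363, and 0.80, adjusted p = 0.186) or without the 6 h libraries (0.10, adjusted p = 1, and 0.36, adjusted p = 0.752). Leaving out any 1 replicate also ended both calls (adjusted p from 0.0971 to 0.157), except that *Fbxw11* passed without OPC replicate 3 (0.036). At 0 h, *Csnk1a1* (casein kinase 1 alpha) was higher in OLs (0.80 ± 0.21, adjusted p = 0.0254) and *Nono*, a partner of PER proteins, was lower (-0.89 ± 0.21, adjusted p = 0.016). That is 1 of 9 in each direction, near the 13.8% and 15.8% of all, and neither passed without OL replicate 1, OL replicate 2 or OPC replicate 3 (adjusted p from 0.0724 to 0.143). *Csnk1e* (0.34 ± 0.08), *Fbxw11* (0.33 ± 0.08) and *Csnk1d* (0.29 ± 0.08) were less steep in OLs, with adjusted p from 0.0109 to 0.0271, and none was steeper. These are 3 of 9, beside 23.7% of all, and none of them passed with each library set to the 0 h median (0.08 to 0.13, adjusted p from 0.239 to 0.455) or without either OL replicate (adjusted p from 0.0775 to 0.178). *Csnk1d* and *Fbxw11* also missed with a pseudocount of 0.1 (0.0753 and 0.0745) and without the 6 h libraries (0.0527 and 0.068). Over the chase 8 of 9 fell in OPCs and 9 of 10 in OLs, beside 81.7% and 68.4% of all. The medians of 0.46 for half-life, 0.18 for the 0 h level and 0.14 for the slope compare with 0.37, -0.01 and 0.14 over all transcripts.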

How the data were processed

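Decay-Seq libraries of OPCs (3 replicates) and OLs (2 replicates) at 0, 1, 2, 4 and 6 h of chase gave 25 of the 26 samples; the no-biotin OPC library was not analysed here. The authors aligned reads to GRCm38 with HISAT2 2.1.0, tabulated FPKM with StringTie 1.3.5 and ballgown over canonical coding transcripts of GENCODE vM9, and scaled the deposited FPKM to labelled spike-ins. They filtered out transcripts under 1 FPKM before the chase or at 0 at 1 and 2 h. No listed transcript was at 0 at 1 h or at 2 h. From the decimals of the FPKM, the 0 h columns were read as unscaled and the later ones as scaled relative to their own 0 h. The authors fitted the deposited half-lives (in hours) by least absolute deviations; values listed just above 6 h were set to 6 here. An error in a spike-in factor moves every transcript of a library together. Values were used as FPKM, from which the depth is unknown.

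Groups came from sample titles. The replicates are described as biological by the study, which matches the OLs to 2 of the OPC replicates without giving numbers. Log2 half-life, log2(FPKM + 1) at 0 h and the slope of log2(FPKM + 1) per replicate were compared between cell types with limma 3.58.1 (R 4.3.3) over all transcripts, and slopes within a cell type with a level per replicate; p-values were two-sided and Benjamini-Hochberg adjusted over all transcripts, with 0.05 as threshold. At the ceiling or at a repeated value the spread is 0 and the SE is too small. The fits were tested on simulated data. The members and lists were chosen with earlier results of these data known: all 10 members are named, and genes of the other lists where they passed a comparison between cell types, at most 4 per comparison. *Usp2*, *Timeless* and *Nfil3*, listed in 1 cell type, were named outside this rule after their values were seen; 1 gene of a list is not reported here and was left out of its counts. Sequence features came from GENCODE M21 and RefSeq; 10089 of 10104 transcripts had a usable coding sequence.

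Alternatives were the replicate block, leaving out each replicate, a pseudocount of 0.1, a 0 h FPKM of at least 5, centring, leaving out the 6 h libraries, no replicate intercept, an interaction over 25 libraries, and refits of half-lives, of which the least-squares refit was added after the data were seen.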

Additional observations from a re-analysis of the deposited data

Results flagged for a closer look

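The decline over the chase differed between the cell types, in a test of the difference itself, for 3 clock transcripts. The slope in OLs exceeded that in OPCs by 0.43 ± 0.09 log2 units per hour (SE) for *Cry1* and by 0.43 ± 0.08 for *Per1* (limma, adjusted p = 0.00741 for both), and by 0.23 ± 0.08 for *Per2* (adjusted p = 0.0429). Of all 8177 transcripts, 23.7% were called in this direction. None of the 3 calls held with each library set to the median of its replicate's 0 h library (adjusted p = 0.065, 0.0692 and 0.815 for *Cry1*, *Per1* and *Per2*) or without either OL replicate (adjusted p from 0.0546 to 0.229). Each difference had both OL replicates above all 3 OPC replicates, which was also the case for 50.9% of all transcripts.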

How the results depend on the processing

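The replicate numbers were not shown to pair the samples. Deviations of same-numbered OPC and OL replicates from their group means correlated at 0.059 and 0.010 (0 h level), -0.0016 and -0.105 (log2 half-life) and -0.026 and -0.101 (slope) for numbers 1 and 2. With the replicate number as a block, calls over all transcripts went from 287 to 0 for half-life (1554 at an unadjusted p under 0.05), from 2421 to 1932 for the 0 h level and from 1944 to 2286 for the slope; the *Clock* half-life difference was then 0.055 and the *Nr1d1* slope difference 0.028, both with the sign turned, and *Cry1* and *Per1* (half-life, adjusted p = 0.155 for both) and *Per2* (slope, adjusted p = 0.116) did not pass, nor did *Bhlhe40* (0.204), *Csnk1e* (0.26) and *Fbxw11* (0.155) for half-life and *Csnk1a1* (0.108) and *Nono* (0.0634) for the 0 h level.

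Centred half-lives gave 1 call of 8112, and turned *Nr1d1* to -0.18, *Nr1d2* to -0.60 and *Csnk1e* to -0.047; *Bhlhe40* and *Fbxw11* lost their calls. Libraries set to the 0 h median left 747 slope differences (186 less steep and 561 steeper, against 1937 and 7), with *Cry2* at -0.079, *Nr1d2* at -0.024 and *Clock* at -0.16. They also left 1186 falling transcripts in OPCs against 6966, where *Per2* (0.040), *Per3* (0.00076), *Cry2* (0.057), *Clock* (0.038) and *Nr1d1* (0.33) turned sign, and 1345 in OLs against 6668, where *Per1* (0.0093), *Per2* (0.070), *Per3* (0.010) and *Nr1d1* (0.093) did. Least-squares half-lives gave 24 calls, and half-lives without the 6 h libraries 30 (15 longer, 15 shorter); neither kept *Cry1*, *Per1*, *Bhlhe40*, *Csnk1e* or *Fbxw11*. The *Clock* half-life difference turned to 0.29 in the refit and to 0.14 without the 6 h libraries. For the slope, a pseudocount of 0.1 gave 569 calls and leaving out the 6 h libraries 1240, with *Nr1d1* at 0.10 and *Per3* (0.39, adjusted p = 0.0288) and *Cry2* (0.43, adjusted p = 0.0233) past the threshold. *Per3* also passed in the interaction over 25 libraries (limma, adjusted p = 0.0118). That fit takes the libraries of a replicate as independent, and with 1 slope per replicate *Per3* missed (limma, adjusted p = 0.067). The cause was not tested.

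Leaving out each replicate moved the calls over all transcripts to 167 to 236 for half-life (120 longer and 49 shorter without OL replicate 1, 144 and 92 without OL replicate 2, against 275 and 12), 896 to 2605 for the 0 h level, and 0 (without OL replicate 2, 2082 at an unadjusted p under 0.05) to 2209 for the slope. The falls over the chase stayed between 6474 and 6894 calls in OPCs and between 4948 and 5652 in OLs. Half-life differences that turned sign ranged from -0.057 to 2.25 for *Per2*, from -0.00059 to 0.61 for *Nr1d2* and from -0.54 to 0.40 for *Clock*, and slope differences from -0.11 to 0.041 for *Nr1d1* and from -0.062 to 0.14 for *Clock*. The depth of the libraries is unknown, so no floor can be given for values listed at 0.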

Other observations

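Of the 8177 transcripts listed in both cell types, 8 were above their own 0 h value after 1 h of chase in all 5 replicates, and *Per1* was 1 of them. The others were *Fos*, *Egr1*, *Nr4a1*, *Dusp5*, *Nfkbiz*, *B9d2* and *Polr3gl*. *Fos*, *Egr1* and *Nr4a1* are known as immediate-early genes, whose transcription starts within minutes of a stimulus, and *Per1* is known to be inducible in the same way by cAMP and serum. At 1 h, *Fos* was at 107.8, 459 and 201.6% of its 0 h value in OPC replicates 1, 2 and 3 and at 207.1 and 650.0% in OL replicates 1 and 2. *Nr4a1* was at 199.5, 209.1 and 239.6% in OPCs and at 200.1 and 437.6% in OLs. The rise of *Per1*, to at most 172.5%, was smaller than that of *Nr4a1* in each replicate. These genes were named after their values were seen, no test was run on them, and a cause was not tested.

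*Usp2*, a ubiquitin-specific protease that acts on clock proteins, was listed in OLs alone, with half-lives of 1.23 ± 0.56 h (SD, n = 2) and a slope of -0.48 ± 0.06 (SE) log2 units per hour, which stood at percentile 2.12 of all OL slopes.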
